A study of Mus musculus with 5 samples.

Results

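Messenger RNA of matrix metalloproteinases and their inhibitors was measured in mouse whole colon. The genes described are 7 metalloproteinases, Mmp2, Mmp3, Mmp7, Mmp9, Mmp10, Mmp13 and Mmp14, and 3 tissue inhibitors, Timp1, Timp2 and Timp3. They were taken by name as 10 of the 22911 genes that could be named on the arrays, and they carried 13 probes. The mice were wild-type, of strain C57BL/B6 as the labels spell it, and the injected mice were 8 weeks old. The 2 Control arrays held colon RNA of mice for which no injection is described. The 3 NT-3N arrays held colon RNA of mice killed 3 hr after intravenous NT-3N, a modified human IL-11 that activates the IL-11 receptor. Because no vehicle injection is given for the Control mice, the agonist and the injection itself cannot be told apart. With 1 mouse per array, the precision rests on 2 and 3 animals. The comparison asks which genes respond in the colon to a signal through the IL-11 receptor.

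Matrix metalloproteinases are zinc-dependent proteases that cut collagens, proteoglycans and other matrix proteins, and that also release or destroy growth factors and cytokines. Most are secreted as inactive proenzymes and need a cut by another protease to become active. The tissue inhibitors, called TIMPs, bind the active site of the enzymes and block it. In the colon they are made mainly by fibroblasts, other stromal cells, epithelium and infiltrating myeloid cells, and several are known to be high in inflamed and ulcerated mucosa. The arrays measured mRNA alone, and neither proenzyme activation nor inhibitor binding was recorded.

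Timp1 was the only gene of the 10 that passed the test, with a 3.16-fold higher signal on the NT-3N arrays. The stromelysins Mmp3 and Mmp10 and the collagenase Mmp13 were also higher on every NT-3N array than on both Control arrays, but none of these 3 passed after adjustment. The gelatinase Mmp9 was not well above background on either Control array. Mmp2, Mmp14, Mmp7, Timp2 and Timp3 had 95% intervals that included 0. No gene of the 10 passed in the lower direction.

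All values are on the log2 scale of the processed signal after quantile normalization, so that a difference of 1 is a doubling. A level on this scale can be compared between arrays for 1 probe, but not between probes. The test was limma's moderated test on 32917 features, and a feature was called at a Benjamini-Hochberg adjusted p under 0.05 over all of them. The call was made for 0.143% of all features. The median log2 fold change of all features was -0.02. The share of probes well above background was between 70.6% and 72.9% per array, no spot was saturated, and the arrays correlated with each other at 0.980 to 0.992 across probes. All 10 genes passed the filter on dim probes, Mmp9 only through 2 NT-3N arrays. As a check of the labelled tissue, the epithelial markers Epcam, Cdh1, Krt8, Krt20, Car1 and Vil1 and the smooth muscle markers Myh11, Acta2, Actg2, Des, Cnn1 and Tagln were well above background on all 5 arrays.

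**Figure D1:**
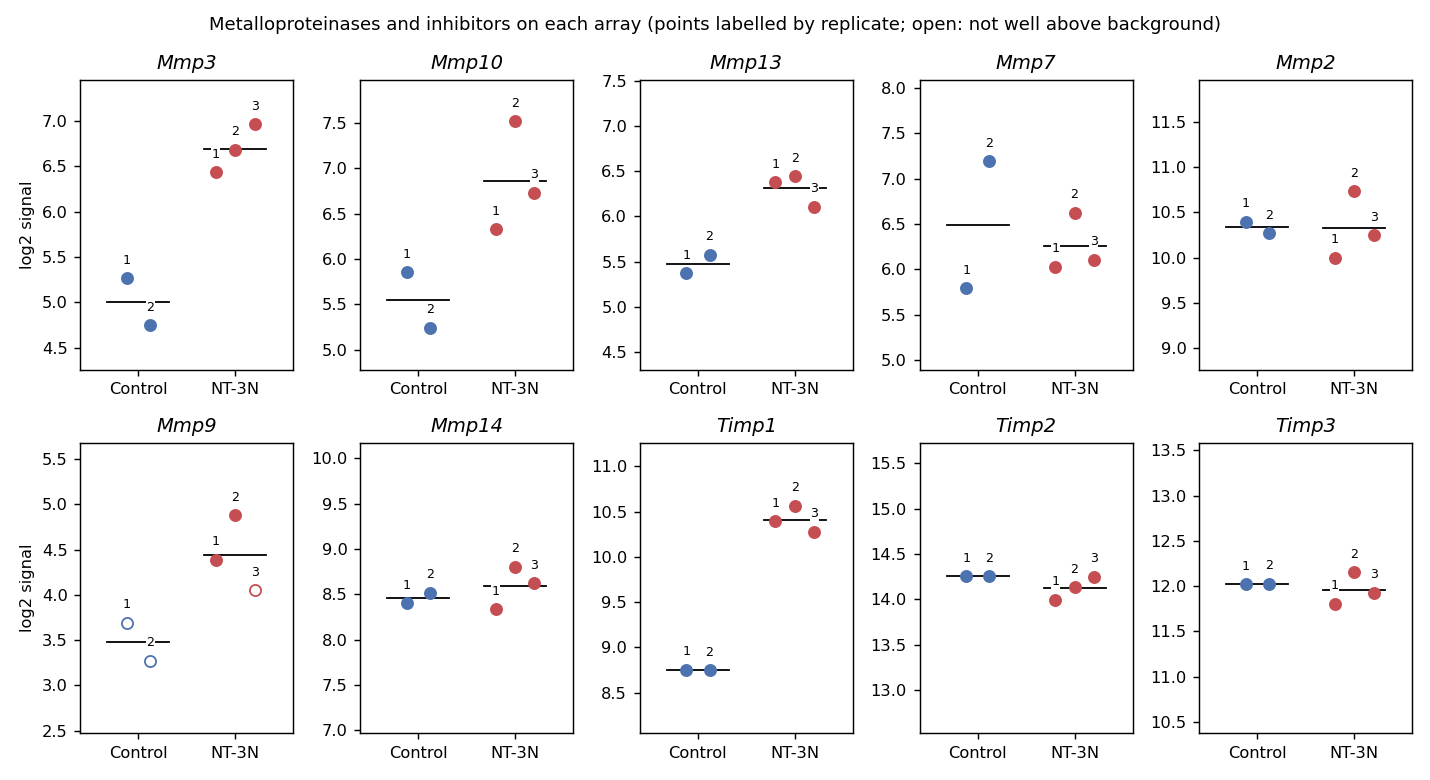
Log2 signal of each gene on each array, with 1 point per mouse labelled by replicate number, a black line at the group mean and an open point where the probe was not well above background. Each vertical axis spans the same range of log2 units. Timp1 lay at 8.76 and 8.75 on the Control arrays and between 10.28 and 10.56 on the NT-3N arrays, while the Timp2 and Timp3 values of both groups lay close together.

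Mmp3, Mmp10 and Mmp13 were the metalloproteinases higher on every NT-3N array and above background in both groups. They lie in the same gene cluster, but not side by side. Mmp13, Mmp12, Mmp1b, Mmp3, Mmp1a, Mmp10, Mmp8, Mmp27, Mmp20 and Mmp7 lie in this order in a cluster on mouse chromosome 9, as ordered in the RefSeq annotation of GRCm38.p6, and these 10 are the only protein-coding genes between its ends. The sequences just before the annotated starts of Mmp3, Mmp10, Mmp13 and Mmp7, the 4 of the cluster described here, are shown because they share elements that Timp1 lacks. Each run holds the 250 bases before the start, 5′ to 3′ on the strand of the gene. Capitals mark every match to TGAGTCA (the AP-1 element), AGGAAG (the PEA3 element bound by ETS factors) and TATAAA (the TATA box), on either strand. The sequences are from RefSeq, build GRCm38.p6, at chr9:7445572-7445821 for Mmp3, chr9:7502092-7502341 for Mmp10, chr9:7272264-7272513 for Mmp13, chr9:7691840-7692089 for Mmp7 and chrX:20869916-20870165 for Timp1, all on the plus strand.
Mmp3: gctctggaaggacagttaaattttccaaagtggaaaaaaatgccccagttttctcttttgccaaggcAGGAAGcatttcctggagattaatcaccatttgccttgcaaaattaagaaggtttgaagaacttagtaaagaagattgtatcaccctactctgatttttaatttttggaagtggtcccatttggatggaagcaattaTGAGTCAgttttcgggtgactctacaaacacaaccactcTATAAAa
Mmp10: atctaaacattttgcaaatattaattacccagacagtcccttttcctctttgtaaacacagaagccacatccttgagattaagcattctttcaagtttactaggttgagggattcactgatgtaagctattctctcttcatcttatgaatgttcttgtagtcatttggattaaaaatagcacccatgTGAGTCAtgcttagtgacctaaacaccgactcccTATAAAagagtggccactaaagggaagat
Mmp13: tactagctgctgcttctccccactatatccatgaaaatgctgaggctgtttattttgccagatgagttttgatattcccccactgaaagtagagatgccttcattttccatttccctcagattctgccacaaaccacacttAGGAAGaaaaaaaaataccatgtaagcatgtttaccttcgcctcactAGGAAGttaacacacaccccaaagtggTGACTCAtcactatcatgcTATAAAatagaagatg
Mmp7: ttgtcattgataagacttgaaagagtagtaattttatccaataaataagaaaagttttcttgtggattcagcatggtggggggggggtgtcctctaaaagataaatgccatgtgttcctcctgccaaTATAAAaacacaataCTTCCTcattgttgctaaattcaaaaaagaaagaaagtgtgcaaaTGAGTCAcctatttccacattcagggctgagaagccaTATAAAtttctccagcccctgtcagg
Timp1: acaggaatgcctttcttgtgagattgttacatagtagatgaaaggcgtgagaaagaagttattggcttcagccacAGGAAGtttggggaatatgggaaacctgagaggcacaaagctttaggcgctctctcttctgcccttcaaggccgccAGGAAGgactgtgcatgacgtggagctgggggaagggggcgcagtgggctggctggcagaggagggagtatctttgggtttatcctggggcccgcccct

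In all 4 windows of the cluster an AP-1 element stood close before the start, 46 to 40 bases before it in Mmp3, 63 to 57 in Mmp10 and in Mmp7, and 35 to 29 in Mmp13, where it reads TGACTCA on the printed strand. A TATA box followed the AP-1 element in each, and Mmp7 held a second one further upstream. The AP-1 element occurs in 4.46% of all 32851 RefSeq windows of this length and the TATA box in 12.37%. Over the whole cluster, 7 of 10 genes had an AP-1 match, 7 had a TATA box and 6 had both. These counts are per gene, with 2 windows for Mmp12 and Mmp7, while the shares above are per window. Both elements thus stood before Mmp3, Mmp10 and Mmp13, with higher values on the NT-3N arrays, and before Mmp7, whose groups overlapped. They also stood before Mmp1a and Mmp1b, which were well above background on no array. Mmp7 has 2 annotated starts, and the window of the upstream one is printed.

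The Timp1 window held neither an AP-1 element nor a TATA box of these letters and had 2 PEA3 elements, 175 to 170 and 99 to 94 bases before the start. PEA3 is common, with a match in 29.48% of all windows. The STAT element TTCNNNGAA, the palindrome read by the factors that IL-11 signalling activates, occurs in 7.02% of all windows and in none of the 8 genes that had one. The windows of Mmp14, Timp2 and Timp3 also had no match to AP-1, STAT or the TATA box. Mmp2 and Mmp9 are not in the table used. A match here is a description of exact letters. Variant forms of an element were not searched, and binding of any factor was not measured.

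Stromelysins have a broad range of substrates, among them proteoglycans, laminin and fibronectin, and they can activate procollagenases. Mmp3, stromelysin 1, gave a log2 signal of 5.27 and 4.75 on the Control arrays and of 6.43, 6.68 and 6.97 on the NT-3N arrays. The lowest NT-3N array lay above the higher Control array by more than the spread within either group. The group means were 5.01 ± 0.37 (SD, n = 2) and 6.69 ± 0.27 (SD, n = 3). They differ by 1.69 log2 units, or 3.22-fold, with a standard error of 0.25 and a 95% interval of 1.09 to 2.28. By limma the unadjusted p was 0.000382 and the adjusted p 0.0991, so that Mmp3 missed the threshold. Mmp3 was called by limma when arrays were weighted by quality (adjusted p = 0.0365), a setting that called 170 features in all against 47 in the reported fit. It was also called by the local-pooled-error test, which the study's methods name (adjusted p = 0.0126). That test gave 56.8% false calls on data simulated from limma's own variance model, a setting that favours limma. With 1 NT-3N array left out the adjusted p of Mmp3 by limma was between 0.0663 and 0.39.

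Mmp10, stromelysin 2, gave 5.85 and 5.24 on the Control arrays and 6.33, 7.52 and 6.73 on the NT-3N arrays. No NT-3N array overlapped the Control arrays, but the NT-3N arrays spread widely, with replicate 2 the highest. The means were 5.55 ± 0.43 (SD, n = 2) and 6.86 ± 0.61 (SD, n = 3). This is a log2 fold change of 1.31 (95% interval 0.40 to 2.22), or 2.48-fold, with an adjusted p of 0.365 by limma. Without Control replicate 2 the change was 1.01 and its unadjusted p by limma was 0.0737, in place of 0.012 over all arrays.

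Mmp13 is collagenase 3, the main interstitial collagenase of rodents, which cuts fibrillar collagen. Its log2 signal was 5.37 and 5.58 on the Control arrays and 6.38, 6.44 and 6.11 on the NT-3N arrays. The groups did not overlap, and the replicates lay closer together than those of the stromelysins. The means were 5.48 ± 0.14 (SD, n = 2) and 6.31 ± 0.18 (SD, n = 3). They differ by 0.83 log2 units with a 95% interval of 0.37 to 1.29, or 1.78-fold. The adjusted p by limma was 0.254.

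Mmp7, matrilysin, is known as an epithelial enzyme that activates antimicrobial peptides in Paneth cells of the mouse small intestine. It gave 5.79 and 7.20 on the Control arrays and 6.03, 6.62 and 6.11 on the NT-3N arrays. All 3 NT-3N values lay between the 2 Control values. The log2 fold change was -0.24 (95% interval -1.26 to 0.78, adjusted p = 0.877 by limma), and its sign rested on the Control arrays: leaving out Control replicate 1 gave -0.94, and leaving out Control replicate 2 gave 0.46. Genes known as Paneth cell markers varied among the same arrays, in different directions and with none called. Whether this colon tissue held Paneth cells was not measured. The defensin Defa24 gave 5.08 and 7.07 on the Control arrays and 9.51, 5.60 and 6.40 on the NT-3N arrays (adjusted p = 0.795 by limma). Ang4, an antimicrobial ribonuclease, gave 15.12 and 15.39 on the Control arrays and 12.84, 15.54 and 11.34 on the NT-3N arrays (-2.01, adjusted p = 0.618 by limma), and Lyz1, a lysozyme, had a log2 fold change of 0.18. Of this list, 3 of 4 genes had a probe, all 3 were above background on all arrays, and their summed signal, most of it from Ang4, was 39551 to 45440 on the Control and 6505 to 51058 on the NT-3N arrays. Their part in the Mmp7 values was not tested.

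The gelatinases digest denatured collagen and collagen IV of basement membranes. Mmp2, gelatinase A, is made steadily by stromal cells. Its log2 signal was 10.40 and 10.27 on the Control arrays and 10.00, 10.73 and 10.25 on the NT-3N arrays. The NT-3N arrays lay on both sides of the Control arrays, with replicate 1 the lowest and replicate 2 the highest of the 5. The log2 fold change was -0.01 with a 95% interval of -0.52 to 0.51 (adjusted p = 0.995 by limma), which leaves room for a ratio of 0.697 to 1.42.

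Mmp9, gelatinase B, is known for its storage in neutrophil granules. Its brighter probe gave 3.69 and 3.27 on the Control arrays, neither well above background, and 4.39, 4.88 and 4.05 on the NT-3N arrays, of which replicate 3 was not well above background. The NT-3N arrays were all higher than the Control arrays, in a range where the Control level is only a bound, so no fold is given. It passed the filter through the NT-3N arrays, so no test of it is given. The other Mmp9 probe was well above background on NT-3N replicate 2 alone and was not tested.

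Neutrophil markers are given beside Mmp9, and none of the list was called. The granule proteins S100a8 and S100a9, which other myeloid cells also make, were above background on none of the 2 Control and on all 3 NT-3N arrays. Their signals were at least 3.61-fold and at least 13.9-fold higher. Each bound sets the NT-3N mean against the mean, over the Control arrays, of the lowest signal of any probe well above background. Both genes passed the filter through the NT-3N arrays alone, so no p-value of theirs is given. Cxcr2, which marks mature neutrophils, was above background on no array, and Retnlg on 1 NT-3N array. Csf3r, the G-CSF receptor, had a log2 fold change of -0.16 (adjusted p = 0.628 by limma). It gave 16.25 and 16.23 on the Control arrays, where no other marker of the list was above background. Whether the Csf3r signal came from neutrophils was not tested. Of the 6 genes of this list, 5 had a probe. Their summed signal, most of it from Csf3r, was 76998 to 78015 on the Control arrays and 64053 to 77463 on the NT-3N arrays. The sum therefore says little about the other markers. The part of neutrophils in the Mmp9 values was not tested. In whole tissue, more cells of a type and more mRNA per cell cannot be told apart.

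Mmp14 is a membrane-type metalloproteinase that cuts collagen at the cell surface and activates the Mmp2 proenzyme together with Timp2. It gave 8.40 and 8.52 on the Control arrays and 8.33, 8.81 and 8.62 on the NT-3N arrays. The groups overlapped, with a log2 fold change of 0.13 (95% interval -0.27 to 0.52, adjusted p = 0.831 by limma). Mmp2, Mmp14 and Timp3 shared an order among the NT-3N arrays, lowest in replicate 1 and highest in replicate 2. The collagen genes Col1a1 and Col3a1 had the same order, with 11.77, 12.85 and 12.23 for Col1a1 and 13.41, 14.34 and 13.75 for Col3a1. The order was not particular to them. Col1a2, Fn1, Pdgfra and C1qa also had it, while Dcn and Csf1r were highest in replicate 3. The median processed signal per array, before normalization, had it too, with 92.3, 115.8 and 106.6. The cause of the order was not tested.

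**Figure D2:**
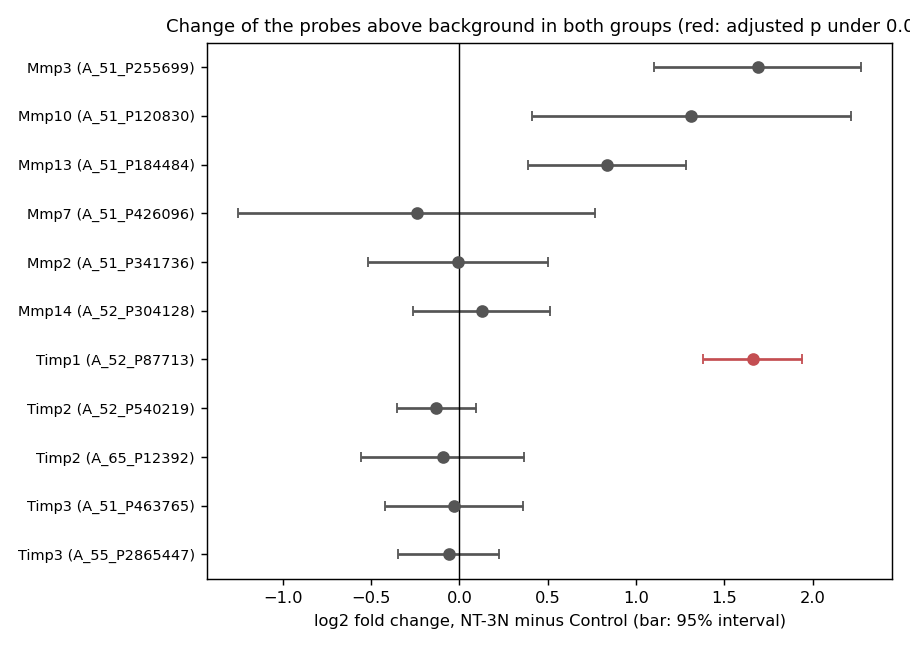
Log2 fold change, NT-3N minus Control, of the probes that were well above background in both groups, which leaves out Mmp9, from a limma fit in which every probe was its own feature, with bars for the 95% interval. The Timp1 probe is the only one in red, the colour of an adjusted p under 0.05. The intervals of Mmp3, Mmp10 and Mmp13 lie above 0 without passing the adjusted threshold, and both probes of Timp2 and of Timp3 include 0.

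Timp1 is a secreted inhibitor with a broad reach over metalloproteinases, known also as a gene that gp130 cytokines induce in other cells. Its log2 signal was 8.76 and 8.75 on the Control arrays and 10.40, 10.56 and 10.28 on the NT-3N arrays. The groups lay far apart, and the spread among mice was small in both. The means were 8.75 ± 0.0051 (SD, n = 2) and 10.41 ± 0.14 (SD, n = 3). Timp1 rose by a log2 fold change of 1.66 with a standard error of 0.12 and a 95% interval of 1.38 to 1.94, which is 3.16-fold with an interval of 2.59 to 3.85. The adjusted p by limma was 0.012, and Timp1 stood at position 13 of 32917 features ordered by p. Timp1 was higher in 3 of 3 NT-3N mice than in either Control mouse. Its call was lost without Control replicate 1 (adjusted p = 0.0579), without NT-3N replicate 2 (adjusted p = 0.0652) and without NT-3N replicate 3 (adjusted p = 0.0781), while its log2 fold change stayed between 1.58 and 1.73 with any 1 array left out. It was also lost with no filter on dim probes (adjusted p = 0.0718) and without the intensity trend (adjusted p = 0.0725). Each of these fits called 2 features in all, against 47 in the reported fit. The fits without NT-3N replicate 2 and without NT-3N replicate 3 called 10 and 0. With the replicate number as a block, the call of Timp1 was lost too (adjusted p = 0.346 by limma), and 0 features were called in all. No pairing of mice by that number is described.

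Timp2 inhibits metalloproteinases and takes part in the activation of the Mmp2 proenzyme at the cell surface. It gave 14.26 and 14.25 on the Control arrays and 13.99, 14.13 and 14.25 on the NT-3N arrays. The highest NT-3N value lay just below the Control values. The log2 fold change was -0.13 (95% interval -0.35 to 0.09, adjusted p = 0.692 by limma). Its other probe gave -0.09 with an adjusted p of 0.897 by limma and overlapping groups.

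Timp3 is bound to the extracellular matrix and inhibits ADAM proteases as well. It gave 12.02 and 12.03 on the Control arrays and 11.80, 12.15 and 11.93 on the NT-3N arrays, with the Control values inside the range of the NT-3N values. The log2 fold change was -0.06 (95% interval -0.35 to 0.22, adjusted p = 0.889 by limma), and the other probe gave -0.03 (adjusted p = 0.968 by limma). Both intervals of Timp2 and Timp3 exclude a change as large as that of Timp1.

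The change of Timp1 was set against that of 3 other genes within each array by an exact permutation test, two-sided, over the 10 ways to split 5 arrays into 2 and 3. This design cannot give a p under 0.1, and because Timp1 was known to be the called gene with groups that do not overlap, a p at that limit against genes with small changes restates its call. Timp1 changed by 1.79 log2 units more than Timp2 (exact p = 0.1, adjusted over the 3 pairs 0.15) and by 1.72 more than Timp3 (exact p = 0.1, adjusted 0.15). Timp1 and Mmp3 differed in their change by -0.03 (exact p = 0.9, adjusted 0.9). A p of this size does not show that both genes moved alike.

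Over the 10 genes, 1 was called higher and 0 lower, beside 0.143% of all features called in either direction. The other counts leave out Mmp9, which entered the test through the NT-3N arrays. At an unadjusted p under 0.05 by limma, 4 of 9 genes were higher, beside 4.95% of all features, and 0 of 9 were lower, beside 4.67%. The 4 were Mmp3, Mmp10, Mmp13 and Timp1. With a change of at least 2-fold as well, 3 of 9 remained, namely Mmp3, Mmp10 and Timp1, beside 0.793% of all features. The groups did not overlap for 5 of 9 genes, 4 of them higher and Timp2 lower, beside 28.4% of all features. The median log2 fold change was 0.48 over the 6 metalloproteinases and -0.06 over the 3 inhibitors, beside -0.02 over all features. The genes were chosen when earlier results from these arrays were known, so these counts describe them and are no independent evidence of a direction.

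In the rest of the chromosome 9 cluster the other genes were dim or did not differ beyond their spread. Mmp12, macrophage elastase, gave 3.82 and 4.36 on the Control arrays and 4.19, 4.75 and 4.94 on the NT-3N arrays (log2 fold change 0.54, 95% interval -0.29 to 1.36, adjusted p = 0.664 by limma), and leaving out Control replicate 1 gave 0.27, leaving out Control replicate 2 gave 0.80. Mmp8, the neutrophil collagenase, gave 3.54 and 4.96 on the Control arrays and 5.37, 4.55 and 4.32 on the NT-3N arrays (log2 fold change 0.50, 95% interval -0.75 to 1.75, adjusted p = 0.787 by limma), Control replicate 1 was not well above background, and without it the change was -0.21. Both pairs of groups overlapped. Mmp1a, Mmp1b and Mmp20 were well above background on no array, and no probe was named Mmp27. Mmp13, Mmp3 and Mmp10, the 3 with an unadjusted p under 0.05 by limma, thus stood among 6 testable genes of the cluster. Over all features 4.95% were higher at that threshold. These 3 were chosen with earlier results known, so the count is no independent evidence about the cluster.

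**Figure D3:**
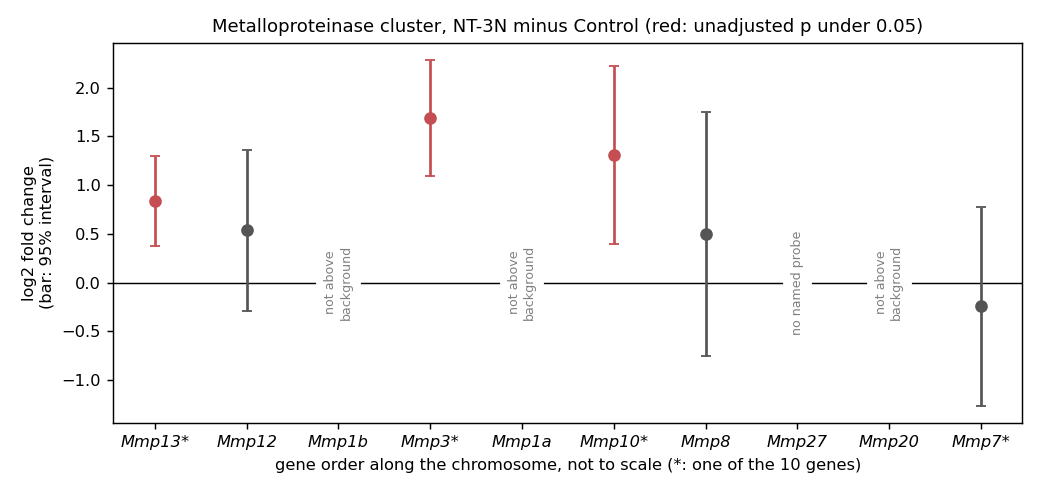
Log2 fold change, NT-3N minus Control, of the metalloproteinase genes of chromosome 9 in gene order, with bars for the 95% interval and red for an unadjusted p under 0.05. Mmp13, Mmp3 and Mmp10 are red at 0.83, 1.69 and 1.31, Mmp12, Mmp8 and Mmp7 have intervals that include 0, and 4 genes have no tested value.

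Among 16 metalloproteinases outside the 10 genes, 10 could be tested and none was called. At an unadjusted p under 0.05 by limma 0 were higher and 3 were lower, beside 4.95% and 4.67% of all features. The median log2 fold change was -0.19. The 3 were Mmp11, stromelysin 3 (-0.64, adjusted p = 0.25), and the membrane-type enzymes Mmp17 (-0.46, adjusted p = 0.309) and Mmp15 (-0.30, adjusted p = 0.466), each with no overlap between groups. Mmp11 gave 8.11 and 8.13 on the Control arrays and 7.29, 7.50 and 7.64 on the NT-3N arrays. Higher values on the NT-3N arrays were thus not found across the family.

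Among 11 other inhibitors, partners and clearance receptors of these enzymes, 10 were tested and 1 was called. Thbs1, thrombospondin 1, a matrix protein that binds metalloproteinases and helps to clear them, gave 9.81 and 9.90 on the Control arrays and 11.46, 11.40 and 11.21 on the NT-3N arrays. Thbs1 rose by 1.50 log2 units with a standard error of 0.11 (adjusted p = 0.0127 by limma), or 2.83-fold. Its call was lost without Control replicate 1 (adjusted p = 0.0677), NT-3N replicate 2 (0.0913) or NT-3N replicate 3 (0.0773), and with the mean over its probes (0.0861). Lcn2, lipocalin 2, which forms a complex with Mmp9, was 1.03 higher (adjusted p = 0.266 by limma). With the mean over its probes Lcn2 was 1.48 higher and was not called either (adjusted p = 0.106 by limma). Reck, a membrane-anchored inhibitor of metalloproteinases, had a log2 fold change of -0.53 (adjusted p = 0.395 by limma). The Reck values were 9.73 and 9.88 on the Control arrays and 8.98, 9.42 and 9.41 on the NT-3N arrays. At an unadjusted p under 0.05 by limma the list counted 2 higher and 1 lower, beside 4.95% and 4.67% of all features. Its median was -0.10.

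Of 12 matrix proteins that metalloproteinases cut, all were tested, none was called and the median log2 fold change was -0.01. Decorin, Dcn, was 0.32 higher (adjusted p = 0.502 by limma) and perlecan, Hspg2, had a log2 fold change of -0.28 (adjusted p = 0.405 by limma), the only 2 with an unadjusted p under 0.05. Of 11 related proteases of the ADAM and ADAMTS families, none was called and the median was 0.18. At an unadjusted p under 0.05 by limma 5 were higher and 0 lower, beside 4.95% and 4.67% of all features. Adamts1, which cleaves proteoglycans, gave 9.16 and 8.85 on the Control arrays and 9.99, 10.32 and 10.11 on the NT-3N arrays (log2 fold change 1.13, 95% interval 0.77 to 1.49, adjusted p = 0.0774 by limma). The others were Adamts9 (0.57, adjusted p = 0.365), Adam9 (0.48, adjusted p = 0.316) and, named after their values were seen, Adam15 (0.19, adjusted p = 0.513) and Adamts4 (1.41, adjusted p = 0.513). The groups overlapped for Adamts4 and for none of the other 4, and the Adamts4 change ran from 0.46 with Control replicate 1 left out to 2.36 with Control replicate 2 left out.

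**Figure D4:**
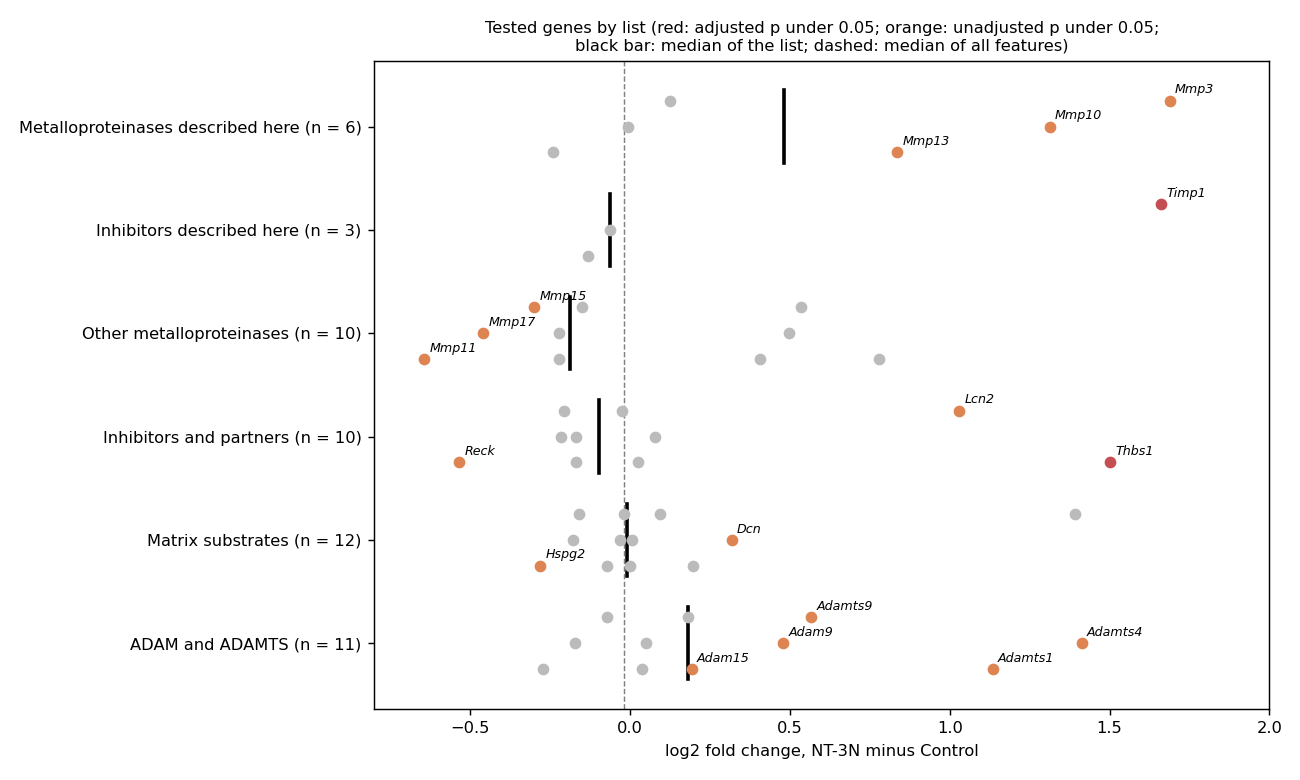
Log2 fold change, NT-3N minus Control, of every tested gene by list (Mmp9 left out), with a black bar at the median of each list and a dashed line at the median of all features, -0.02. Timp1 and Thbs1 are red, with an adjusted p under 0.05, genes in orange had only an unadjusted p under 0.05, and the matrix substrates centre on -0.01.

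Markers of cell types were read on the same arrays, and none was called. Over all features, 4.95% were higher and 4.67% lower at an unadjusted p under 0.05 by limma. Of 6 fibroblast markers, 2 were higher at an unadjusted p under 0.05, Pdpn (1.49, adjusted p = 0.0672 by limma) and Dcn, while Pdgfra, Col1a1, Lum and Thy1 had log2 fold changes between -0.04 and 0.12. Their summed signal was 34133 to 37654 on the Control and 36801 to 48675 on the NT-3N arrays. All 6 smooth muscle markers had a log2 fold change below 0, with a median of -0.28 and 2 at an unadjusted p under 0.05. Their summed signal was 445674 to 460166 on the Control and 326964 to 416455 on the NT-3N arrays. Among 6 macrophage markers 1, Mrc1, was higher at an unadjusted p under 0.05 (0.53, adjusted p = 0.323 by limma), and the summed signal was 9369 to 10015 on the Control and 8213 to 11537 on the NT-3N arrays. Ms4a1 (CD20), a B cell marker, had a log2 fold change of 3.65 without overlap (adjusted p = 0.0595 by limma), beside 0.73 for Cd79a and -0.07 for Cd22 (adjusted p = 0.686 and 0.909). No gene of the endothelial, mesothelial and adipocyte lists had an unadjusted p under 0.05. Their summed signals on the Control and NT-3N arrays were 1303 to 1329 and 1267 to 1451 for 4 endothelial markers, 35.6 to 159.2 and 115.2 to 576.1 for 3 mesothelial markers, of which 1, Msln, was tested, and 5077 to 7870 and 2091 to 6280 for 4 adipocyte markers. The part of any of these cell types in the metalloproteinase and inhibitor values was not tested.

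Under 19 alternative ways to process or test the arrays, the log2 fold change of Timp1 was between 1.45 and 1.73, and its unadjusted p stayed under 0.05 in 19 of 19. That of Mmp3 ran from 0.84 to 1.95, and that of Mmp13 from 0.41 to 0.94, each with an unadjusted p under 0.05 in 19 of 19. Mmp10 ran from 0.76 to 1.62 and kept an unadjusted p under 0.05 in 18 of 19. The lowest value of each of these 4 genes came from normexp background correction with an offset of 50 on the median spot signal, which compresses dim signals by its construction.

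**Figure D5:**
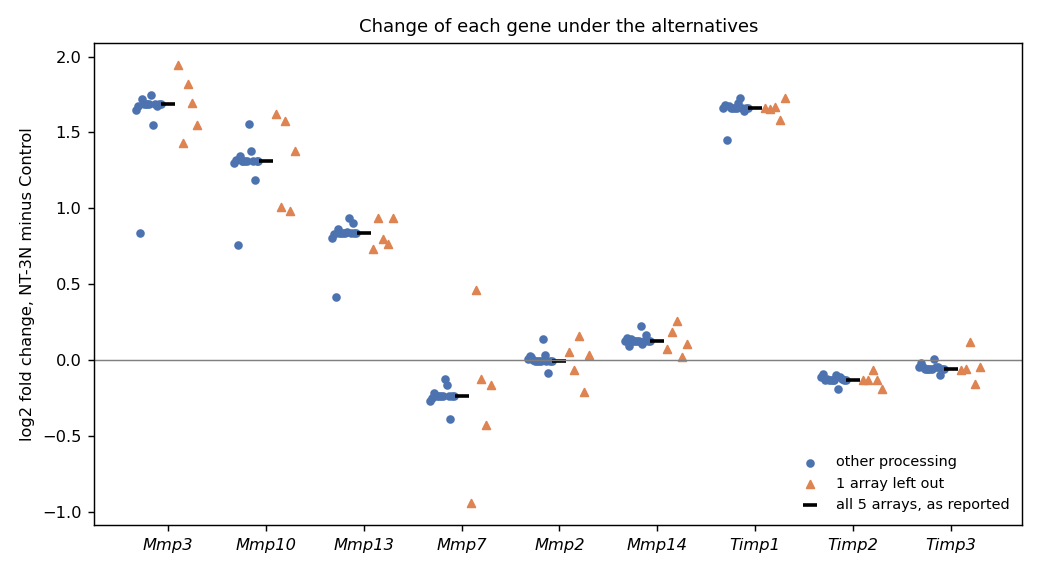
Log2 fold change of each gene but Mmp9, NT-3N minus Control, as reported from all 5 arrays (black bar), under other processing (blue points) and with 1 array left out (orange triangles). Timp1 stays between 1.45 and 1.73, Mmp7 ranges from -0.94 to 0.46 as single Control arrays are left out, and Mmp2 and Timp3 lie on both sides of 0.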

How the data were processed

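Colon RNA of 5 mice was labelled with Cy3 and hybridised to 5 one-colour Agilent arrays on 1 slide with 1 scan time. The authors extracted spots with Agilent Feature Extraction 11.0.1.1, per the labels. The deposited intensity was background-subtracted and detrended, and not scaled between arrays. The authors also deposited a log2 table of 37380 probes, which correlated at 0.99998 or more per array with the quantile-normalized log2 processed signal and was used as an alternative only. Sources differ on the dose unit and the extraction reagent, so neither is given.

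From 59305 noncontrol spots per array, 69 to 184 outlier spots were left out. Processed signal was log2-transformed, spots of a probe were averaged, and arrays were quantile-normalized. Probes well above background on at least 2 of 5 arrays were kept. Accessions named 32994 of 56605 probes through RefSeq, and the brightest probe stood for a gene. Groups came from the sample labels. Fits used lmFit and eBayes with a trend in limma 3.58.1 (R 4.3.3). They were also run on data simulated from limma's own variance model. There 74.4% of 4-fold and 34.8% of 2-fold changes among 32910 features were recovered with 4.55% false calls. Because the model is limma's own, this share of false calls does not check limma on the real arrays. The local-pooled-error test gave 56.8% false calls in this setting, which favours limma. No pairing of mice by replicate number is described, so the mice were treated as unpaired. Listed genes were named where called, or where the unadjusted p was under 0.05 without overlap of groups, at most 3 per list, with every other metalloproteinase of the cluster. Members and lists were chosen with earlier results of these data known. One list of related genes is not reported here.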

Additional observations from a re-analysis of the deposited data

How the results depend on the processing

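Among the 10 genes, 1 was called higher, Timp1, and 0 lower. None was called lower under any of the 19 alternatives run. The number called higher was 0 with no filter on dim probes (adjusted p of Timp1 = 0.0718 by limma) and 0 without the intensity trend (0.0725). Each of these fits called 2 features in all, against 47 in the reported fit. It was also 0 with the replicate number as a block (0.346), a fit that leaves NT-3N replicate 3 without a partner. That fit called 0 of 32917 features, with 2488 at an unadjusted p under 0.05. The number called higher was 2, Mmp3 and Timp1, with array quality weights and with the local-pooled-error test. These called 170 and 396 features in all. With 1 NT-3N array left out the number called higher ranged from 0 to 1, and 87, 10 and 0 features were called in all without replicate 1, 2 and 3. Deviations of same-numbered mice correlated at 0.13 and 0.04, over 2 pairs, which is too few to decide whether the mice were paired. Alternatives reversed the sign of 3 of the 10 genes. Mmp7 ranged from -0.94 to 0.46 with 1 array left out. Mmp2 was 0.0067 with 75th percentile scaling, 0.029 with median scaling, 0.019 with normexp, 0.14 with array quality weights and 0.031 with the replicate block, and with 1 array left out it ranged from -0.21 to 0.16. Timp3 was 0.0082 with array quality weights and ranged from -0.16 to 0.12 with 1 array left out. Of the listed genes, Mmp8 ranged from -0.21 to 1.21 with 1 array left out, and the call of Thbs1 was lost under the same 3 settings as that of Timp1 (adjusted p = 0.0718, 0.0918 and 0.346) and with the mean over probes (0.0861). The cause was not tested. The deposited log2 values and the filter asking for signal above background on all arrays gave no value for Mmp9 and Mmp8. A block for slide or scan was not run, since all arrays shared 1 of each. Signal close to background limits Mmp9, Mmp8 and Mmp12, and 5 arrays limit the precision of every change. Mmp3, Mmp10 and Mmp13 were well above background on all 5 arrays but were dim too. Their processed signals were 27.7 to 54.1 on the Control arrays, where the array medians were 96.0 and 105.7. With normexp their log2 fold changes were 0.84, 0.76 and 0.41, so the size of these changes depends on how background is handled.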
